A study of Homo sapiens with 30 samples.

Results

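The genes described here are PTPRD and 8 other receptor tyrosine phosphatase genes, PTPRF, PTPRS, PTPRK, PTPRM, PTPRG, PTPRJ, PTPRE and PTPRZ1, taken by symbol from the 26364 genes listed in each count file. All 9 passed the filter on low counts and were among the 15381 genes tested. PTPRD was selected on its measured difference between the Bottom 10 positive and Top 10 positive groups, so its values in any comparison using a library of those groups are a description with no test. The other 8 are relatives of PTPRD and were tested throughout.

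The libraries hold polyadenylated RNA of the established human melanoma line A375. There were 30 of them in 10 groups, each group had 3, and per the labels no group carried a transgene or drug. Cells were sorted with an antibody as negative or positive for integrin β4 (ITGB4, a laminin receptor subunit), and migrated through membranes with 5 µm pores coated with fibronectin. Parental negative and Parental positive cells were sorted without migration. Top 10 negative and Top 10 positive cells were collected above the membrane in 10 rounds, as cells that had not crossed, and then sorted, and Bottom 10 negative and Bottom 10 positive cells had crossed in 10 rounds before the sort. Bottom 5 negative cells had crossed in 5 rounds and Top 5 positive cells had stayed above in 5 rounds. In the groups called Sorted negative then 4 rounds and Sorted positive then 5 rounds, the sort came first and the cells then crossed 4 or 5 times. The series description speaks of 5 rounds and of a clone, while the sample titles give 4, 5 and 10 rounds and no clone. The titles were followed here. The labels number biological replicates without saying whether cultures were separate. The p-values therefore rest on the spread of these libraries, which may be technical.

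Receptor tyrosine phosphatases span the plasma membrane and remove phosphate from tyrosines of cytoplasmic proteins. Their extracellular parts often resemble cell adhesion molecules, and their intracellular parts act on kinases, catenins and other proteins of cell-cell and cell-matrix contacts. PTPRD, PTPRF and PTPRS form the LAR family, which binds heparan sulphate proteoglycans and synaptic adhesion proteins outside the cell and liprins inside it. PTPRD is known as a tumour suppressor gene that is often altered in melanoma and other cancers.

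Promoter sequences are shown for the 2 genes called between Bottom 10 and Top 10 cells, PTPRD and PTPRE, and for PTPRS, the relative of PTPRD whose level differed least between those groups in the negative sort. Windows that overlap an exon of the gene itself are not shown, which leaves an internal start for PTPRE. Each is the 250 bases before an annotated start in RefSeq (GRCh38.p14), written 5′ to 3′ on the strand of the gene. The counts were made on hg19, so the coordinates locate the sequence only. Capitals mark matches on either strand to the GC box GGGCGG, the E-box CACGTG, the SOX motif ACAAAG and the TATA box TATAAA, and CCGCCC and CTTTGT are the reverse strand forms of the first and the third. In the PTPRS window 1 GC box overlaps the first E-box.
PTPRD, chr9:10613003-10613252, minus strand: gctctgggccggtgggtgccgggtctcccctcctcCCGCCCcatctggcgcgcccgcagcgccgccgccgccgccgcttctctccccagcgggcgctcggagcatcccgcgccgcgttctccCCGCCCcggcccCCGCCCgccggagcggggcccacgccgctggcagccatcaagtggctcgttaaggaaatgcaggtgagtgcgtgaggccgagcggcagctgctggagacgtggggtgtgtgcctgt
PTPRD internal start, chr9:8779392-8779641, minus strand: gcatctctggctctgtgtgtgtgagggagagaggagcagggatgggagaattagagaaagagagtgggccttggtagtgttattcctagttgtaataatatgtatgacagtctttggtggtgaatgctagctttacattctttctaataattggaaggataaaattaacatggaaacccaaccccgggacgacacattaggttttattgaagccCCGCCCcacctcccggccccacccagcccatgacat
PTPRS, chr19:5340813-5341062, minus strand: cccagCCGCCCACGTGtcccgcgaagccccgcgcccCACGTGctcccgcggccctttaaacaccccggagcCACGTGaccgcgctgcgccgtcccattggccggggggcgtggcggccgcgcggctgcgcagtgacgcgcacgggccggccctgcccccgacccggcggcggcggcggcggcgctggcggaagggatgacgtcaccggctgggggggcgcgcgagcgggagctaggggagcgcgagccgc
PTPRE internal start, chr10:127987030-127987279, plus strand: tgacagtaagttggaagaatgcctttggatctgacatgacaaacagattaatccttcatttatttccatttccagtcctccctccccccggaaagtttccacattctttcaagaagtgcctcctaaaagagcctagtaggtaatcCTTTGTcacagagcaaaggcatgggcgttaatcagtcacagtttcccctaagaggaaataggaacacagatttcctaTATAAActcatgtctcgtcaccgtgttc
The upstream PTPRD window held 3 GC boxes and 32 CpG dinucleotides at 76.0% G and C, and the PTPRS window 3 E-boxes, 1 GC box and 44 CpG. Both internal windows lie within an intron of their gene in GENCODE and held 4 CpG each. The median of all 35116 RefSeq promoters of this length was 11 CpG and 58.0% G and C. Of all those promoters, 42.6% held a GC box, 6.34% the E-box, 13.7% the SOX motif and 10.7% the TATA box. The AP-1 motif TGANTCA, in 6.57% of all promoters, and the TEAD motif GGAATG, in 11.9%, were also searched on both strands and had no match in these 4 windows. The upstream PTPRD window overlaps an exon of the antisense gene PTPRD-AS2 in GENCODE. The counts per gene do not show which start was used.

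Gene counts per library were 14258919 to 29134945. The first 3 principal components of log2 CPM (a gene's count scaled to a fixed library size, after TMM factors) held 32.4, 21.2 and 12.1% of the variance, and the second set 6 libraries apart from the rest, with a score above 30: Top 10 negative replicate 1, Bottom 10 positive replicate 3, Sorted negative then 4 rounds replicate 2, Bottom 5 negative replicate 2 and Top 5 positive replicates 1 and 3. These 6 also differed from the other 24 in technical measures, with no overlap. Reads counted as ambiguous were 1.85 to 2.27% in the 6 and 1.54 to 1.74% in the 24. Their TMM factors were 0.818 to 0.966, against 0.989 to 1.07. Why these libraries stood apart was not tested. ITGB4 was at 24.6, 33.7 and 25.1 CPM in Parental negative and 168, 96.7 and 35.2 CPM in Parental positive libraries (edgeR adjusted p = 1), with no overlap, while the 2 sorts overlapped in Top 10 and Bottom 10 cells. SOX10, a factor of melanocytes, was at 287 to 1460 CPM and MITF at 23.2 to 66.3 CPM, whereas the pigment genes MLANA and TYR reached at most 0.54 and 0.066 CPM. The list of 8 melanoma lineage markers also held S100B, PMEL, DCT and TYRP1. Its sum was 366 to 1592 CPM. The leukocyte marker PTPRC, itself a receptor tyrosine phosphatase, was at most 0.16 CPM, and 5 endothelial markers summed to 0.76 to 3.22 CPM. Sums of 5 leukocyte, keratinocyte and fibroblast markers were 28.6 to 158, 65.2 to 219 and 7.28 to 30.7 CPM, mostly CD68 (22.5 to 155 CPM) and KRT10 (62.9 to 187 CPM) in the first and second, while CD3E was at 0 in all libraries. In bulk RNA, fewer cells expressing a gene and less RNA per cell cannot be told apart.

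PTPRD was scarce in most of these cells and higher in the 6 libraries of cells that had crossed in 10 rounds before the sort. In Bottom 10 negative libraries it was at 6.84, 6.83 and 4.59 CPM, and in Bottom 10 positive libraries at 16.8, 18.4 and 5.13 CPM. The other 24 libraries, in 8 groups, ran from 0.59 to 2.31 CPM with a median of 1.05, which is 12 to 45 counts, against 75 to 364 counts in the Bottom 10 libraries. The lowest Bottom 10 library was thus above the highest of the other 24. Of all genes tested, 7 had this separation upwards (0.0455%) and 2 downwards (0.013%). Since PTPRD was chosen for part of this difference, its place among them is a description.

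**Figure D1:**
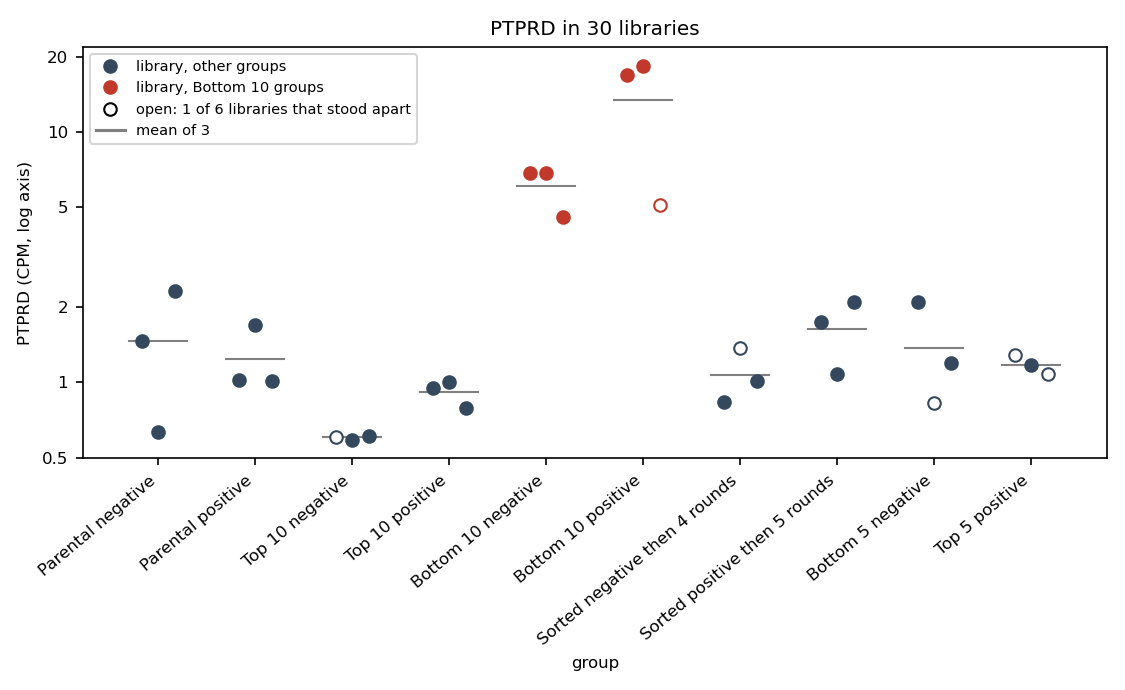
PTPRD in CPM (log axis) in each of 30 libraries by group; grey lines are means of 3, and open points are the 6 libraries apart. The 6 Bottom 10 libraries sit between 4.59 and 18.4 CPM, all above the other 24 at 0.59 to 2.31 CPM.

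The lowest group was Top 10 negative, with 0.61, 0.59 and 0.61 CPM. Against it PTPRD rose in Bottom 10 negative cells by 3.32 ± 0.47 (log2, SE), 10.0-fold, with an edgeR adjusted p of 0.000263. These libraries were not used to choose the gene. Libraries of the 2 sorts with the same replicate number deviated together, however. The correlations were 0.28, 0.55 and 0.59 in Bottom 10 cells and 0.31, 0.71 and 0.79 in Top 10 cells. Members and comparisons were also chosen with earlier results of these data known. The test is thus not independent of the choice of PTPRD. The call held in 6 of 6 fits that left out 1 library (edgeR adjusted p from 0.000409 to 0.00343).

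In the positive sort, the comparison that chose the gene, Top 10 positive libraries were at 0.95, 1.00 and 0.79 CPM. The log2 difference to Bottom 10 positive cells was 3.88 ± 0.47, or 14.7-fold, and it ran from 3.58 to 4.26 with each library left out. The Bottom 10 positive group was uneven. Its replicate 3, at 5.13 CPM, is 1 of the 6 libraries that stood apart, and without those libraries the log2 difference was 4.24. The log2 difference between the sorts within Bottom 10 cells was 1.15 ± 0.41 and the groups overlapped.

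Against parental cells, PTPRD rose in Bottom 10 negative cells from 1.46, 0.63 and 2.31 CPM, by 2.05 ± 0.44 (log2), 4.14-fold (edgeR adjusted p = 0.0343). Against Bottom 5 negative cells, at 2.10, 0.82 and 1.20 CPM, it rose by 2.15 ± 0.44, 4.44-fold (edgeR adjusted p = 0.0485). Neither pair of groups overlapped, but each call held in only 1 of 6 fits with a library left out. The first was lost without Parental negative replicate 1 or 2 or any Bottom 10 negative replicate (edgeR adjusted p up to 0.227), and the second without Bottom 5 negative replicate 2 or 3 or any Bottom 10 negative replicate (edgeR adjusted p up to 0.311). With only the compared groups in the fit the edgeR adjusted p-values were 0.224 and 0.433. With no filter on low counts the first was 0.0517, and without the 6 libraries apart the second was 0.129. Reads outside any annotated feature were 12.8 to 13.2% in Bottom 10 negative libraries. They were 15.4 to 16.6% in Parental negative and 14.8 to 17.4% in Bottom 5 negative libraries. This technical difference runs along the groups and cannot be told apart from them.

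The groups with fewer crossings had PTPRD near the parental level. Bottom 5 negative differed from Parental negative by -0.10 ± 0.44 (log2; edgeR adjusted p = 0.968). Sorted negative then 4 rounds, at 0.84, 1.38 and 1.01 CPM, differed from Parental negative by -0.47 ± 0.45 (edgeR adjusted p = 0.573). Sorted positive then 5 rounds, at 1.74, 1.08 and 2.10 CPM, differed from Parental positive, at 1.02, 1.69 and 1.01 CPM, by 0.40 ± 0.44 (edgeR adjusted p = 1). In all 3 comparisons the libraries overlapped. Against Top 5 positive cells, at 1.28, 1.17 and 1.08 CPM, the difference of Sorted positive then 5 rounds was 0.48 ± 0.45 (edgeR adjusted p = 0.552).

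Cells that had stayed above the membrane in 10 rounds were lowest of the 10 groups. Top 10 negative libraries lay below all 3 Parental negative libraries, a log2 difference of -1.27 ± 0.46 that did not pass (edgeR adjusted p = 0.719). Top 10 positive libraries also lay below all 3 Parental positive libraries, by -0.44 ± 0.45, which was not tested. In the order of the group means, both Bottom 10 groups came first and overlapped each other. The next 7 groups, from Sorted positive then 5 rounds at 1.64 ± 0.52 (SD, n = 3) to Top 10 positive at 0.91 ± 0.11 CPM, each overlapped its neighbour, and Top 10 negative (0.60 ± 0.01 CPM) lay below Top 10 positive.

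PTPRD-AS1, a gene of antisense RNA that overlaps PTPRD in RefSeq, had 8, 18 and 8 counts in Bottom 10 negative and 18, 41 and 11 in Bottom 10 positive libraries. It had 0 counts in all 3 Top 10 negative libraries and 0 to 6 in the other 21. PTPRD-AS1 was thus higher in Bottom 10 than in Top 10 cells in both sorts. Outside Bottom 10 its counts stayed under the filter minimum of 10, so it passed the filter only through the groups where it was high. The Bottom 10 positive and Top 10 positive libraries also chose PTPRD, which it overlaps. Its difference is therefore a description with no test. Whether the counting used strand was not given in the sources used here, so reads of the gene and of its antisense partner cannot be told apart. The 5 tested genes on each side of PTPRD in RefSeq order include PTPRD-AS1, and none of the others was called in either comparison. The others were RANBP6, UHRF2, GLDC, KDM4C and TMEM261 on one side and TYRP1, LURAP1L-AS1, LURAP1L and MPDZ on the other. GLDC, the glycine decarboxylase of mitochondria, differed most of them in the positive sort, by -1.78 ± 0.77 (log2; edgeR adjusted p = 0.434).

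Across the 30 libraries, the genes most like PTPRD in log2 CPM were TMPRSS15 (Pearson r = 0.87), PTPRD-AS1 (0.86), KCNJ8 (0.85), SORL1 (0.79) and ASTN1 (0.78), and the least like were ZNF208 (-0.79), TRIM13 (-0.78) and DIS3 (-0.76). TMPRSS15, the protease enteropeptidase, was at 42.9 ± 17.3 CPM in Bottom 10 negative and 2.06 ± 0.54 CPM in Top 10 negative libraries (SD, n = 3). KCNJ8, a potassium channel subunit, was at 1.24 ± 0.36 and 0.093 ± 0.008 CPM in the same groups. ZNF208, a zinc finger protein, was at 1.92 ± 0.32 and 5.90 ± 1.64 CPM. The points share group and library, so these correlations describe the same 6 Bottom 10 libraries seen above.

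The relatives within the LAR family were far more abundant. Per kilobase of transcript and over all 30 libraries, PTPRF averaged 56.3, PTPRS 33.6 and PTPRD 0.293 CPM per kb. PTPRF, which sits at focal adhesions and cell contacts, was at 138, 224 and 290 CPM in Top 10 negative and 548, 775 and 574 CPM in Bottom 10 negative libraries. These groups did not overlap, and the log2 difference of 1.54 ± 0.48 did not pass in the fit of all groups (edgeR adjusted p = 0.150). It passed without the 6 libraries apart (1.29, edgeR adjusted p = 0.0277) and with DESeq2 (1.53, adjusted p = 0.046). For the positive sort PTPRF was at 326, 330 and 339 CPM in Top 10 and 725, 792 and 251 CPM in Bottom 10 libraries. Replicate 3 of Bottom 10 positive, a library that stood apart, lay below all 3 Top 10 positive libraries. The log2 difference was 0.83 ± 0.47 (edgeR adjusted p = 0.682), and without the 6 libraries apart it was 1.18 (edgeR adjusted p = 0.037).

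PTPRS, a receptor for heparan and chondroitin sulphate chains, did not follow PTPRD. It was at 200, 318 and 250 CPM in Top 10 negative and 263, 299 and 223 CPM in Bottom 10 negative libraries, which overlapped (log2 difference 0.031 ± 0.35, edgeR adjusted p = 0.999). Positive sort levels were 274, 278 and 220 CPM in Top 10 and 210, 195 and 84.4 CPM in Bottom 10 libraries. All 3 Bottom 10 positive libraries were below the Top 10 positive ones, with a log2 difference of -0.66 ± 0.36 (edgeR adjusted p = 0.642).

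As shares of the summed CPM per kb of the 3 LAR family genes within each library, PTPRF was at 36.1, 36.7 and 48.7% in Top 10 negative and 62.7, 67.7 and 67.6% in Bottom 10 negative libraries. With the positive sort it was at 49.4, 49.3 and 55.8% in Top 10 and 73.0, 75.9 and 70.2% in Bottom 10 libraries. The Bottom 10 groups were above the Top 10 groups by 25.5 and 21.5 percentage points, with no overlap, and for PTPRS the difference Bottom 10 minus Top 10 was -25.9 and -22.7 points. Each of these 4 comparisons had an exact two-sided permutation p of 0.1, the smallest that 3 against 3 libraries can give, and 0.1 after adjustment over the 4. The shares of the 3 genes make up the whole and PTPRD held at most 1.37%. The PTPRS differences are therefore nearly the mirror of those of PTPRF and add little to them. In CPM, PTPRS overlapped between these groups in the negative sort. Bottom 10 positive replicate 3, low in CPM for PTPRD, PTPRF and PTPRS alike, had shares close to those of its group. The share of PTPRF averaged 71.7% in Sorted negative then 4 rounds, 72.6% in Sorted positive then 5 rounds and 67.4% in Bottom 5 negative libraries. It averaged 63.8% in Parental positive, 49.8% in Parental negative and 44.9% in Top 5 positive libraries. PTPRD made up 0.61, 0.47 and 0.42% of the sum in Bottom 10 negative and 1.32, 1.37 and 1.12% in Bottom 10 positive libraries, and at most 0.37% in the other 24.

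**Figure D2:**
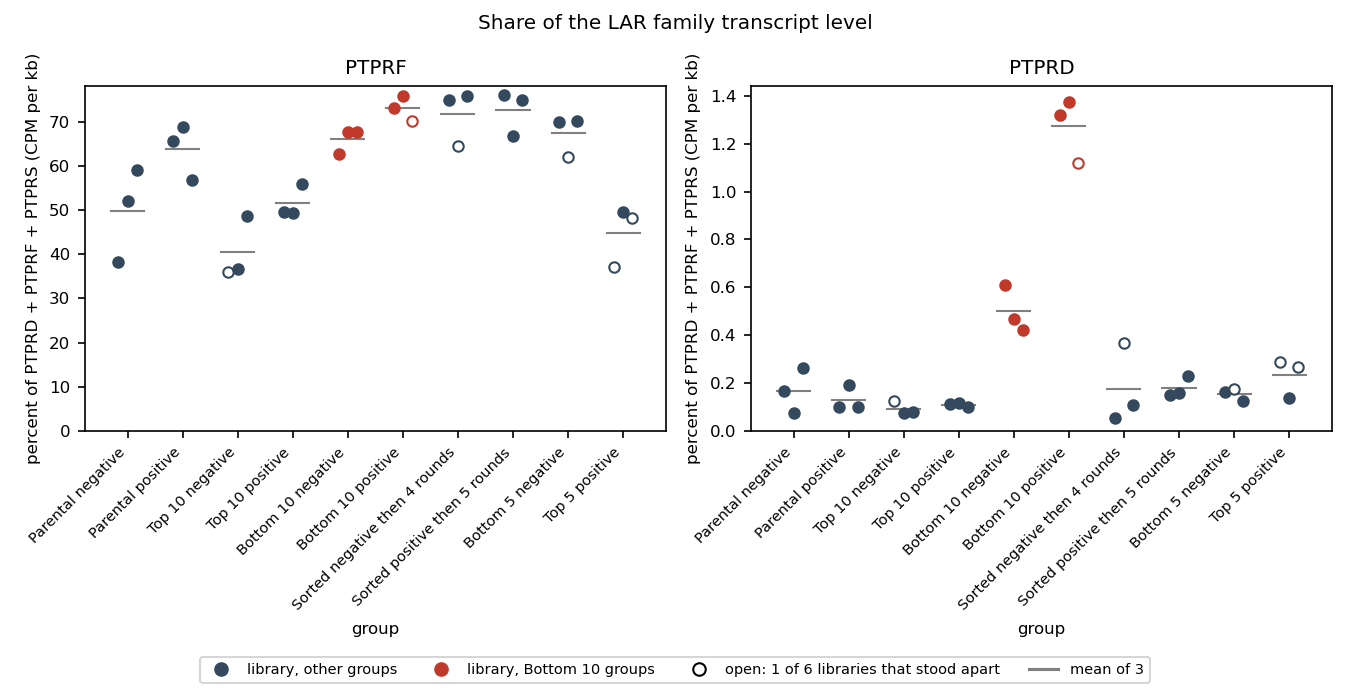
Share (percent) of PTPRF, left, and PTPRD, right, in the summed CPM per kb of PTPRD, PTPRF and PTPRS in each library by group; grey lines are means of 3 and open points are the 6 libraries that stood apart. The mean share of PTPRF is 66.0 to 73.0% in the groups that crossed and 63.8% in Parental positive libraries, and PTPRD exceeds 0.37% in the 6 Bottom 10 libraries.

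PTPRK and PTPRM, whose extracellular parts bind the same molecule on a neighbouring cell, averaged 6.19 and 6.03 CPM per kb. PTPRK was at 15.5, 30.2 and 29.2 CPM in Top 10 negative and 37.0, 45.4 and 42.4 CPM in Bottom 10 negative libraries, with no overlap (log2 difference 0.74 ± 0.33, edgeR adjusted p = 0.473). Under the positive sort it was at 32.3, 34.8 and 35.0 against 41.3, 52.8 and 25.4 CPM, and the groups overlapped (0.23 ± 0.33, edgeR adjusted p = 0.931). PTPRM spread widely between replicates. Its Bottom 10 positive libraries were at 76.5, 125 and 23.4 CPM and its Top 10 positive libraries at 31.6, 45.7 and 14.1 CPM. They overlapped, and in both groups replicate 2 was highest and replicate 3 lowest. The log2 difference was 1.30 ± 0.59 (edgeR adjusted p = 0.486), and in the negative sort 0.83 ± 0.58 (edgeR adjusted p = 0.847).

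PTPRG and PTPRZ1 carry an extracellular domain that resembles carbonic anhydrase, with contactins among their ligands. PTPRG split the libraries in a different way from the groups: it was at 14.1 to 19.6 CPM in the 6 libraries that stood apart and 40.3 to 69.95 CPM in the other 24. Those 6 were picked by a component computed from the same log2 CPM values, PTPRG among them, so this separation is a description. How many of all genes tested separate in this way was not counted. The share of ambiguous reads and the TMM factors, given above, separate the same 6 libraries. The other 8 genes overlapped between these sets of libraries. Their medians in the 6 and the 24 were 169 against 500.3 CPM for PTPRF, 123 against 237 for PTPRS, 22.4 against 41.9 for PTPRK, 18.0 against 36.8 for PTPRM and 66.8 against 90.1 for PTPRJ. For PTPRZ1 they were 5.49 against 8.38 CPM, for PTPRE 3.15 against 3.56 and for PTPRD 1.18 in both. Between Bottom 10 and Top 10 cells PTPRG differed by 0.53 ± 0.52 in negative sort cells and by -0.38 ± 0.52 in positive sort cells (log2; edgeR adjusted p = 0.970 and 0.925), and the latter was 0.010 without the 6 libraries. PTPRZ1, a receptor for pleiotrophin, spread widely within groups, as in Parental negative libraries at 30.9, 8.25 and 4.79 CPM. It differed by -0.11 ± 0.85 and -1.17 ± 0.86 in the 2 sorts (edgeR adjusted p = 0.999 and 0.810), with overlap in both.

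PTPRJ, which acts on several receptor tyrosine kinases and on junction proteins, had the smallest ratio of highest to lowest library among the 9, 2.11, with 52.5 to 111 CPM. It was at 105, 95.0 and 105 CPM in Top 10 positive and 84.4, 70.6 and 52.5 CPM in Bottom 10 positive libraries. The Bottom 10 positive libraries were all lower, by a log2 difference of -0.56 ± 0.21 that did not pass (edgeR adjusted p = 0.317). The negative sort groups overlapped (-0.068 ± 0.21, edgeR adjusted p = 0.999).

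PTPRE, which has a short extracellular part and is known to activate SRC family kinases, was low in cells that had stayed above the membrane in 10 rounds. It was at 0.69, 0.82 and 1.88 CPM in Top 10 negative and 3.28, 3.02 and 3.55 CPM in Bottom 10 negative libraries. The groups did not overlap, and PTPRE rose by 1.54 ± 0.37 (log2), 2.91-fold (edgeR adjusted p = 0.0352). Only the fit without Top 10 negative replicate 3 kept the call (edgeR adjusted p = 0.00681): it was lost without Top 10 negative replicate 1 or 2 or any Bottom 10 negative replicate (up to 0.254), with no filter (0.061), with only the compared groups (0.172) and without the libraries apart (0.153). Of the positive sort, libraries were at 1.89, 1.80 and 1.77 CPM in Top 10 and 2.35, 3.44 and 4.79 CPM in Bottom 10 libraries, again with no overlap (0.95 ± 0.37, edgeR adjusted p = 0.342).

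The parental libraries had PTPRE at 2.57, 3.65 and 4.34 CPM after the negative sort and 4.67, 4.02 and 6.94 CPM after the positive sort. All 6 lay above the 3 Top 10 libraries of their sort. For Top 10 against parental cells the log2 difference was -1.64 ± 0.38 for the negative sort and -1.51 ± 0.37 for the positive sort, neither past the threshold with edgeR (adjusted p = 0.154 and 0.0738), whereas DESeq2 called both (adjusted p = 0.011 and 0.00516). Without the libraries apart the positive comparison also passed with edgeR (adjusted p = 0.0415). The 2 comparisons of the Top 10 group with parental and with Bottom 10 cells share the Top 10 libraries.

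**Figure D3:**
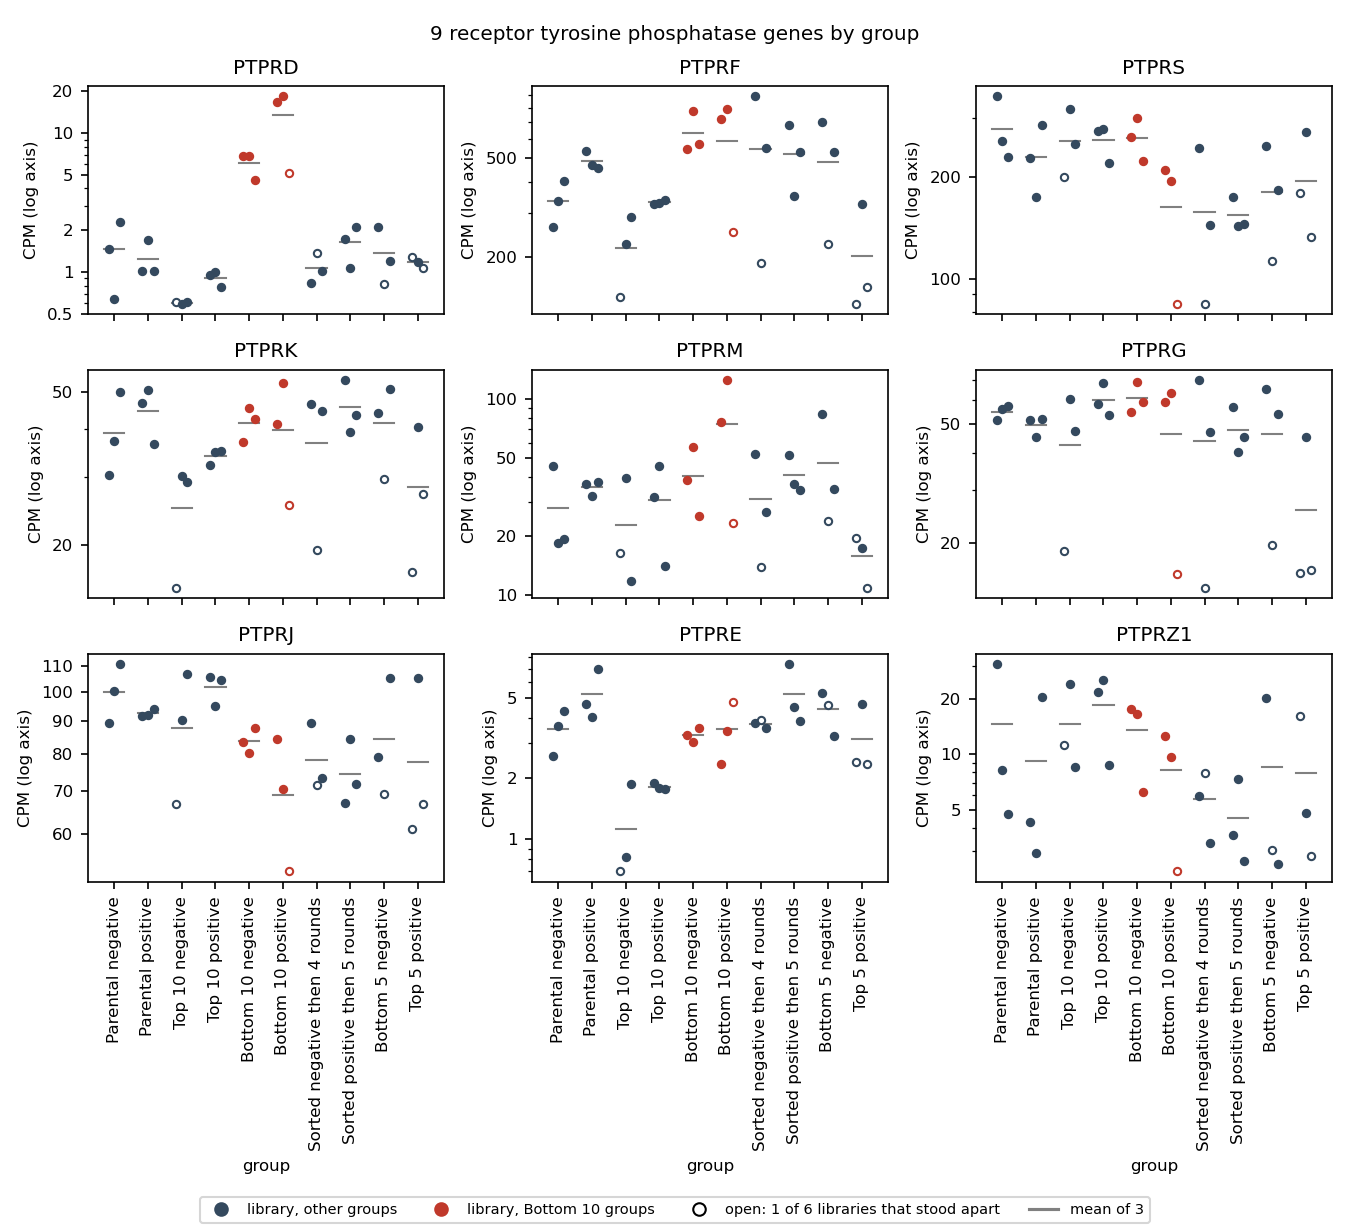
The 9 genes in CPM (log axes) in 30 libraries by group, with means of 3 as grey lines and the 6 libraries apart as open points. PTPRD is high in the 6 Bottom 10 libraries, PTPRE is low in the Top 10 groups (0.69 to 1.89 CPM), and PTPRG is below 20 CPM in the 6 open points.

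Counted over the 9 genes, edgeR called 2, PTPRD and PTPRE, in the comparison of Bottom 10 with Top 10 cells of the negative sort, where 1.33% of all genes were called. The call of PTPRD is not independent of its choice, as said above. Of the 9, 4 did not overlap between these groups, against 16.1% of all genes. Their median log2 difference was 0.74, with 7 above 0, beside -0.01 for all genes tested. Libraries of these groups with the same replicate number deviated together, and a fit of the 4 Top 10 and Bottom 10 groups with the number as a block called 4: PTPRD, PTPRE, PTPRF (edgeR adjusted p = 0.0356) and PTPRM (edgeR adjusted p = 0.0329). In that fit 1355 genes were called in all, against 205 without the block.

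Among positive sort cells, 0 of the 8 tested genes were called, beside 0.943% of all genes, and 3 of the 8 did not overlap, beside 15.2%. Here 4 of the 8 were above 0 and 4 below, with a median log2 difference of -0.077 beside 0.03 for all genes. PTPRJ, PTPRE and PTPRM, 3 of the 8, had an unadjusted p under 0.05 with edgeR, beside 1384 of the 15381 genes tested. DESeq2 called 0 of the 8, beside 285 of all genes. The block of replicate numbers called 2 of the 8, PTPRM (1.19, edgeR adjusted p = 0.0125) and PTPRZ1 (-1.24, edgeR adjusted p = 0.0295). In that fit 1130 of 14587 genes were called. The difference of the 2 sorts in this contrast was itself tested, and 0 of the 8 genes and 0.0% of all genes passed (lowest edgeR adjusted p of the 8 = 0.998). With an unadjusted p under 0.05 there were 0 of the 8 and 441 of all genes, and DESeq2 called 0 genes. For PTPRD that difference was 0.55 ± 0.63, untested.

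**Figure D4:**
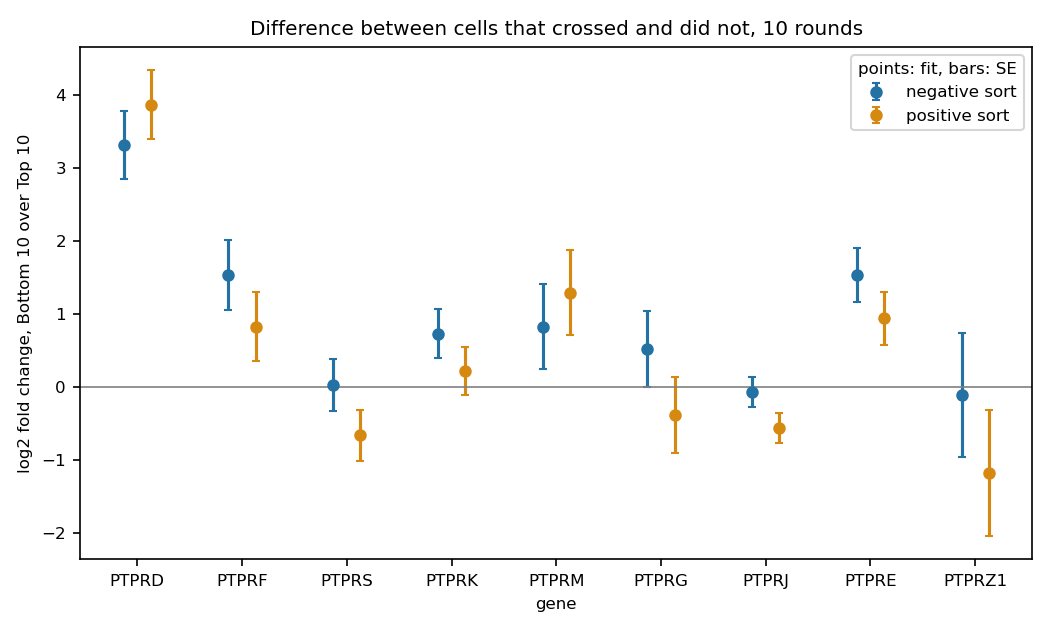
Log2 fold change of Bottom 10 over Top 10 cells for the 9 genes in the negative (blue) and positive (orange) sort, with bars of 1 SE from the edgeR fit of all 10 groups. PTPRD is highest in both sorts, at 3.32 and 3.88, and PTPRE and PTPRF follow in the negative sort at 1.54 each.

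Of the comparisons with parental cells, Bottom 10 negative had 1 of 9 called, PTPRD (0.325% of all genes), and Bottom 10 positive 0 of 8 (0.247%). Top 10 negative had 0 of 9 (0.0455%) and Top 10 positive 0 of 8 (0.384%), Bottom 5 negative 0 of 9 (0.858%) and Top 5 positive 0 of 9 (0.163%). Bottom 10 against Bottom 5 of the negative sort had 1 of 9, again PTPRD (0.117%). All 9 genes were below the parental level in Top 10 negative cells, with a median log2 difference of -0.37 beside 0.003 for all genes, and all 9 in Top 5 positive cells, with -0.66 beside 0.02. For PTPRZ1 the difference in Top 10 negative cells was -0.0089 ± 0.85. In Top 10 positive cells 4 of the 8 genes were above the parental level and 4 below, with a median of -0.044 beside 0.006. Top 10 negative replicate 1 and Top 5 positive replicates 1 and 3 are among the libraries that stood apart, and the first was the lowest of its group for PTPRG (18.8 CPM) and PTPRK (15.5 CPM). Positive against negative sort gave 0 of 9 genes called in parental cells (0.0585%), 0 of 8 in Top 10 cells (0.013%) and 0 of 8 in Bottom 10 cells (0.0%). Sorted positive then 5 rounds had 0 of 9 called against Top 5 positive (2.05%) and 0 of 9 against Parental positive (0.039%), and Sorted negative then 4 rounds 0 of 9 against Parental negative (2.0%). Bottom 10 positive against Sorted positive then 5 rounds gave 0 of 8 (0.208%).

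Over the 30 libraries, PTPRF went with PTPRK most closely of the 36 pairs (Pearson r = 0.88 in log2 CPM), and PTPRE with PTPRZ1 least (-0.42). PTPRD went with PTPRM at 0.56 and PTPRF at 0.51. These values describe libraries that share groups and the same 6 libraries apart.

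Other genes of the pathway were described by list. Of 11 other receptor-type phosphatases, 8 were tested, and PTPRA was the most abundant at 21.6 CPM per kb, followed by PTPRH (5.50), PTPRU (2.08), PTPRR (1.28), PTPRN (1.09), PTPRB (0.530), PTPRO (0.393) and PTPRN2 (0.122). PTPRT, PTPRC and PTPRQ, the 3 not tested, averaged 0.015, 0.009 and 0.008 CPM per kb. Between Bottom 10 and Top 10 cells of the negative sort 1 of the 8 was called, beside 1.33% of all genes, and 0 of the 8 in the positive sort, beside 0.943%. The called gene was PTPRB, the phosphatase of endothelial junctions, at 0.30, 0.91 and 1.22 CPM in Top 10 negative and 4.64, 10.2 and 4.12 CPM in Bottom 10 negative libraries (2.97 ± 0.71, edgeR adjusted p = 0.0332). The call held in 2 of 6 fits without 1 library: it was lost without any Top 10 negative replicate or Bottom 10 negative replicate 2 (edgeR adjusted p up to 0.243), and with only the compared groups (0.0535). Its positive sort libraries overlapped, at 1.80, 4.01 and 2.70 CPM in Top 10 and 8.27, 17.2 and 2.39 CPM in Bottom 10 cells (1.72 ± 0.66, edgeR adjusted p = 0.340), and the difference passed without the libraries apart (2.15, edgeR adjusted p = 0.0426). The endothelial markers PECAM1 and CDH5 were at most 0.31 and 0.43 CPM in all libraries. PTPRB was at 2.40 to 5.35 CPM in Parental negative libraries, and the difference of Bottom 10 negative from them, 0.63 ± 0.64, did not pass (edgeR adjusted p = 1).

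Of 17 non-receptor tyrosine phosphatases, 16 were tested, and the same gene was called in both sorts, where 1.33% and 0.943% of all genes were called. PTPN22, known from lymphocyte signalling, was at 2.99, 2.59 and 2.95 CPM in Top 10 negative and 7.29, 6.13 and 4.77 CPM in Bottom 10 negative libraries (1.09 ± 0.23, edgeR adjusted p = 0.0118). Positive sort libraries were at 2.84, 2.11 and 3.34 against 8.16, 6.67 and 6.23 CPM (1.34 ± 0.23, edgeR adjusted p = 0.00347). The positive sort call held in 6 of 6 fits without 1 library. The negative sort call held in 2 of 6, being lost without Top 10 negative replicate 1 or 2 or Bottom 10 negative replicate 1 or 2 (edgeR adjusted p up to 0.0871), with no filter (0.0513) and without the libraries apart (0.0635). With only the compared groups neither was called (edgeR adjusted p = 0.127 and 0.157). PTPN22 is, like PTPRD, 1 of the 7 genes whose 6 Bottom 10 libraries all lay above the other 24. It also rose against Parental negative, Parental positive and Bottom 5 negative cells (edgeR adjusted p = 0.00482, 0.00268 and 0.0111). With only the compared groups these 3 calls were lost (edgeR adjusted p = 0.162, 0.197 and 0.468), and the last held in 2 of 6 fits without 1 library, lost without Bottom 10 negative replicate 1 or 2 or Bottom 5 negative replicate 2 or 3. It was also lost without the libraries apart (1.35, edgeR adjusted p = 0.106).

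Of 24 ligands and co-receptors of the LAR family, 23 were tested, and 0 were called with the negative sort and 1 with the positive sort, beside 1.33% and 0.943% of all genes, which is near the background. The medians were 0.01 and -0.46 (log2) beside -0.01 and 0.03 for all genes. SDC3, the heparan sulphate proteoglycan syndecan-3, fell from 290, 310 and 313 CPM in Top 10 positive to 82.9, 99.5 and 58.7 CPM in Bottom 10 positive libraries (-1.92 ± 0.41, edgeR adjusted p = 0.0208). The groups did not overlap, but the call was lost without any 1 of the 6 libraries (edgeR adjusted p from 0.0528 to 0.121) and without the libraries apart (0.0862). In the negative sort it was at 249, 430.5 and 396 against 122, 124 and 148 CPM, with no overlap (-1.45 ± 0.41, edgeR adjusted p = 0.0925), and passed with the replicate block of 4 groups (edgeR adjusted p = 0.00269) and with DESeq2 (0.0187). Of 12 ligands of PTPRG and PTPRZ1, 9 were tested, and only CNTN5 was called, in the negative sort, beside 1.33% of all genes. CNTN5, a contactin that binds PTPRG, rose in the negative sort from 0.30, 0.68 and 0.31 to 2.77, 3.65 and 1.91 CPM (2.67 ± 0.61, edgeR adjusted p = 0.0212). That call held in 2 of 6 fits, lost without Top 10 negative replicate 1 or 3 or Bottom 10 negative replicate 1 or 2 (edgeR adjusted p up to 0.151), and was lost without the libraries apart (0.0885). For positive sort cells CNTN5 was at 0.69, 0.75 and 0.30 against 4.47, 3.08 and 1.37 CPM (2.35 ± 0.59, edgeR adjusted p = 0.0576), and passed with the replicate block of 4 groups (edgeR adjusted p = 0.00251).

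Partners and substrates inside the cell had no call in either sort, where 1.33% and 0.943% of all genes were called, so 0 calls in lists of this size lie near the background. The lists were 9 of 9 cytoplasmic partners of the LAR family that were tested (liprins, TRIO and CASKIN proteins; medians 0.48 and 0.04), 9 of 10 junction and adhesion proteins (-0.003 and 0.10), 4 of 8 SRC family kinases (-0.12 and -0.28) and 14 of 14 receptor tyrosine kinases (0.14 and -0.14). The RNA of these genes does not measure tyrosine phosphorylation.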

How the data were processed

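The authors deposited a raw count per gene and library, and the submitters' processing notes name hg19, STAR, HTSeq and DESeq. For versions, parameters and strand, the setting was not given in the sources used here. Totals of unassigned reads, 22.1 to 31.8% of reads per library, stayed out of library sizes. No 2 replicates agreed within sampling noise.

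Genes passing filterByExpr (minimum count 10, total 15) were fitted with edgeR 4.0.16 (R 4.3.3), TMM factors and quasi-likelihood F tests, all 10 groups in 1 fit, in 19 comparisons and 2 interactions. P-values were adjusted over all 15381 genes by Benjamini-Hochberg, and called means an adjusted p under 0.05. The SE is the log2 fold change divided by the root of F. Log2 CPM used a prior count of 2, and levels per kb used GENCODE transcript lengths, with coding length as an alternative. RefSeq matched 98.3% of tested genes.

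The members, comparisons and gene lists were chosen with earlier results of these data known. Named were the 9 genes, called genes of each list (up to 4 with the smallest p in each comparison of Bottom 10 with Top 10 cells), 5 neighbours on each side of PTPRD, the 5 genes most and 3 least correlated with it, other receptor phosphatases by level, and ITGB4. GLDC was singled out after its values were seen.

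On simulated counts for Bottom 10 against Top 10 negative (15218 genes), 24 of 100 genes were recovered at a 2-fold change and 82 of 100 at a 4-fold change. Directions were wrong for 0 genes, and 3 of 109 calls were false. The simulated libraries were drawn independently, with the dispersions of the same fit. They held no shared deviation by replicate number and no libraries apart, so these rates may not carry over to the data. Alternatives were DESeq2 1.42.0, RLE factors, no filter, replicate blocks, only the compared groups, leaving out each library and leaving out the 6 libraries apart. A block limited to the 2 compared groups was an alternative chosen after seeing the data, as was testing the called list genes under all settings. The labels number replicates without stating a pairing. Libraries with the same number deviated together in Bottom 10 and Top 10 groups (correlations of 0.41, 0.63 and 0.69 in the negative and 0.26, 0.57 and 0.55 in the positive sort).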

Additional observations from a re-analysis of the deposited data

How the results depend on the processing

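PTPRD in Bottom 10 against Top 10 negative cells was called under the 7 other settings run for it and in all 6 fits without 1 library. The number of the 9 genes called there was 2, and was 1 with no filter on low counts and with only the compared groups, 3 with DESeq2, 4 with a replicate block in 4 groups, and 1 to 2 with 1 library left out. Calls over all genes there were 205 of 15381, and 394 with DESeq2. They were 169 of 22154 with no filter, 157 of 14289 with only the compared groups and 1355 of 14587 with the block. In the positive sort 0 of the 8 tested genes were called, and 2 with a replicate block in 4 groups and 1 without the libraries apart. Calls over all genes in that sort were 145 of 15381, 1130 of 14587 with the block and 129 of 15905 without the libraries apart. Bottom 10 against parental negative went from 1 to 0 with no filter and with only the compared groups, and was 0 to 1 with 1 library left out, and Bottom 10 against Bottom 5 negative from 1 to 0 with only the compared groups and without the libraries apart, and was also 0 to 1. Over all genes, Bottom 10 against Bottom 5 negative had 18 calls, 0 with only the compared groups and 11 without the libraries apart. Top 10 against parental went from 0 to 1 (PTPRE) with DESeq2 in the negative sort, and to 1 in the positive sort with DESeq2 and without the libraries apart. DESeq2 called 50 and 215 of all genes in these 2 sorts, and the fit without the libraries apart called 108 in the positive sort. Sorted negative then 4 rounds against parental went from 0 to 1 (PTPRF) without the libraries apart, where 255 of all genes were called. Leaving out Top 5 positive replicate 2 gave PTPRF a call in the comparisons of that group with Sorted positive then 5 rounds (1.91, edgeR adjusted p = 0.0377) and with parental cells (-1.81, edgeR adjusted p = 0.0444), both 0 to 1. Calls over all genes in these 2 comparisons rose with it, from 315 to 1287 and from 25 to 1200. The cause was not tested.

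Small differences changed sign. With 1 library left out, Bottom 10 minus Top 10 (log2) in the negative sort ran from -0.11 (no Top 10 replicate 1) to 0.22 for PTPRS, from -0.23 to 0.094 (no Top 10 replicate 3) for PTPRJ and from -0.38 to 0.45 (no Top 10 replicate 2) for PTPRZ1. In the positive sort it ran from -0.029 (no Bottom 10 replicate 2) to 0.46 for PTPRK and from -0.68 to 0.023 (no Bottom 10 replicate 3) for PTPRG. Without the libraries apart PTPRS was at -0.13 and PTPRG at 0.010. The replicate block over all 10 groups changed no count of these 9 genes. The block of only the compared groups was not run for any comparison of Bottom 10 or Top 10 cells. It was run for Bottom 5 against parental negative cells and for the 2 presorted groups against each other. It was also run for Bottom 5 negative against Sorted negative then 4 rounds. It changed no count of the 9 genes there. Over all genes, the negative Bottom 10 against Top 10 comparison had 205 calls, against 394 with DESeq2 and 1355 with the block of 4 groups, and the positive one 145, against 285, 1130 and, with only the compared groups, 31. Calls in the comparison of Bottom 10 with parental negative cells were 50, against 174 with DESeq2, 33 with no filter, 111 without the libraries apart and 0 with only the compared groups. PTPRD, at 12 to 45 counts in 24 libraries, and its antisense gene, at fewer counts, are measured with few reads. In the simulation most 2-fold changes were missed at 3 libraries a group.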
